A study of Homo sapiens with 4 samples.

Results

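Interferon-stimulated genes and their regulators are described here in HEL cells with and without knockdown of AFF4. The 45 genes were taken by symbol from the table of read counts, which holds 28103 genes, and all 45 were found. They fall into the OAS, IFIT and IFITM families, the regulators (2 receptor chains, 5 transcription factors and 3 RNA sensors), the ISG15 system, 2 dsRNA-responsive enzymes, the IFI genes, other antiviral effectors, and a set made of PARP9, PARP14, XAF1 and SP110. Of the 45, 41 had enough reads to be tested, among 13572 tested genes.

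The study sequenced poly(A) RNA of HEL, an established human leukaemia line of erythroid and megakaryocytic character whose JAK-STAT signalling is constitutively active. The AFF4_KD group is HEL with the genotype AFF4 knockdown (2 libraries) and the Ctrl group is HEL with the genotype WT (2 libraries). Both were grown in RPMI-1640 with serum and antibiotics, and no interferon or other stimulus is named. The cell type is labelled as erythroblast, and a pair of RNA extraction kits is named without saying which library used which. AFF4 holds together the super elongation complex, the machinery that lets paused RNA polymerase II go on transcribing, and the comparison asks which RNAs differ once AFF4 is reduced. The sources used here do not give how the knockdown was made, how long it lasted or whether the cells are a clone. Nothing says that the replicates were grown apart, so each p-value covers no more than library-to-library spread, possibly technical.

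Type I interferons bind a receptor made of the IFNAR1 and IFNAR2 chains, and the kinases attached to it phosphorylate STAT proteins. STAT2 joins IRF9 and a partner STAT in the factor ISGF3, which binds the interferon-stimulated response element (ISRE) in promoters. The induced genes degrade or trap viral RNA, block viral entry or feed back on the pathway, and many are also expressed at a low level without added interferon.

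The promoters of these genes are shown first because a shared sequence element is what the family is known for. RefSeq windows of 250 bases before to 50 after the annotated start (build GRCh38.p14) were found for 35 of the 45 genes, 12 of them with more than 1 window. They were searched on both strands for the core of the ISRE (GAAA, any 2 bases, GAAA) and for TTCNNNGAA, the gamma-activated site (GAS) bound by STAT dimers. An ISRE core was present in 21 of the 35 genes (60%), against 4.38% of the 27305 genes in the table. A GAS was present in 10 of the 35 (28.6%), against 9.38% of all genes. Genes other than regulators held the ISRE core in 20 of 29 cases and regulators in 1 of 6, IFIH1. The 10 genes without a window were OAS2, OASL, IFIT2, IFITM2, USP18, MX2 and the regulators IFNAR2, IRF2, IRF7 and DHX58. The share among regulators therefore leaves these out. In 4 genes (BST2, IFI27, IFITM1 and MX1) an ISRE core and a GAS match shared bases.

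The ISRE core nearest to the start is printed below for genes of several groups, with 10 bases on each side, in the orientation that reads GAAA and with the matched bases in capitals.
OAS3: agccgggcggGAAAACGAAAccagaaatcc
IFIT5: cgagcgctcaGAAACTGAAActtaagaaat
IFITM1: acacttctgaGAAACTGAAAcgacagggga
IFITM3: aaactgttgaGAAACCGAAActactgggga
IFIH1: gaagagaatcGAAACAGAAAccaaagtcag
ISG15: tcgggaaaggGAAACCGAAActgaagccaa
EIF2AK2: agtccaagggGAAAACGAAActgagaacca
IFI6: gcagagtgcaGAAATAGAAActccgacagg
MX1: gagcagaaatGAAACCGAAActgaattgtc
RSAD2: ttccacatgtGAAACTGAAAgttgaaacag

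These stretches lie at chr12:112938452-112938481 (plus strand) for OAS3, chr10:89414554-89414583 (minus) for IFIT5, chr11:314024-314053 (plus) for IFITM1, chr11:320876-320905 (minus) for IFITM3 and chr2:162318686-162318715 (minus) for IFIH1. The others lie at chr1:1013380-1013409 (plus) for ISG15, chr2:37156967-37156996 (minus) for EIF2AK2, chr1:27672266-27672295 (minus) for IFI6, chr21:41420559-41420588 (plus) for MX1 and chr2:6877622-6877651 (minus) for RSAD2. Among tested genes with a window, the ISRE core was found in 3 of the 8 with a positive log2 fold change and in 16 of the 25 with a negative one. The match is a description of the letters and does not show that a factor binds there.

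**Figure D1:**
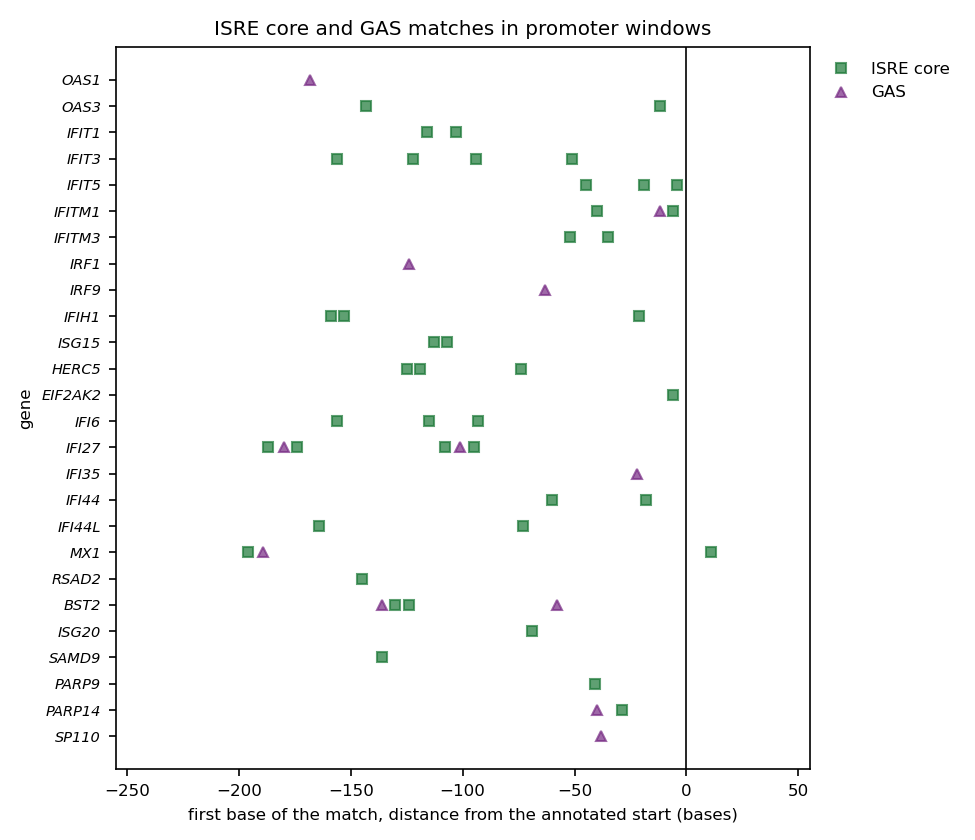
Positions of ISRE core (squares) and GAS (triangles) matches, one row per gene, against the distance in bases of the first matched base from the annotated start (vertical line). Genes with several start sites show the matches of all their windows, so 1 site can appear at more than 1 distance. In the 21 genes with an ISRE core most squares lie upstream of the start, and MX1 has 1 just after it.

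The libraries held between 14903878 and 19129008 counts, and the 10 most abundant genes took 4.16% to 4.84% of a library. AFF4 itself was at 18.7 and 18.9 CPM (the depth-normalised read count, taken on library sizes scaled by TMM) in the AFF4_KD libraries and at 88.3 and 69.2 CPM in the Ctrl libraries, a log2 fold change of -2.07 ± 0.19 (SE; edgeR quasi-likelihood test, adjusted p = 0.0268). All 12 erythroid and megakaryocytic markers of the line were detected, and of these HBG1 (fetal globin) and ITGB3 (platelet integrin) fell, by 0.86 and 0.87 on the log2 scale (edgeR adjusted p = 0.0394 and 0.0415, up to 0.337 and 0.808 under the alternatives). Of 32 markers of 8 other cell types, 19 were under 1 CPM in every library and 7 had no read, among them CD3E, CD3D, LILRA4 and COL1A2. Others were well detected, among them PECAM1, CD4, TCF4, KDR and KRT8. Their means were 154, 82.7, 87.3, 76.4 and 13.4 CPM in AFF4_KD libraries and 177, 130, 57.8, 70.8 and 22.3 CPM in Ctrl libraries. The 32 markers summed to 437 to 443 CPM in AFF4_KD libraries and 478 to 489 CPM in Ctrl libraries, and their part in the results below was not tested. In RNA from whole cultures, fewer expressing cells and less RNA per cell cannot be told apart.

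The 2 Ctrl libraries stand apart from each other in a way that follows base composition. Over the tested genes, the difference of Ctrl 2 from Ctrl 1 in log2 CPM had a Spearman correlation of 0.84 with transcript GC content (n = 13162 genes), and over the 41 tested interferon genes it was 0.89. The same correlation between the AFF4_KD libraries was 0.42 over all tested genes and 0.37 over the interferon genes. These are correlations across genes, which are not independent replicates, and the points share the same libraries. All 15 interferon genes with a GC content under 45% were lower in Ctrl 2 (median -0.42), whereas the 10 genes at 55% or more had a median of 0.50. The spread of the tested genes was also wider in Ctrl, with an SD of 0.23 between the AFF4_KD libraries and 0.49 between the Ctrl libraries. The log2 fold change itself had a correlation with GC content of -0.0036 over all tested genes and of -0.27 over the interferon genes. Values with a library left out or after a correction for GC content are given beside many of the genes below. After that correction 34.9% of all tested genes had an adjusted p under 0.05 in edgeR, so passing it was common.

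**Figure D2:**
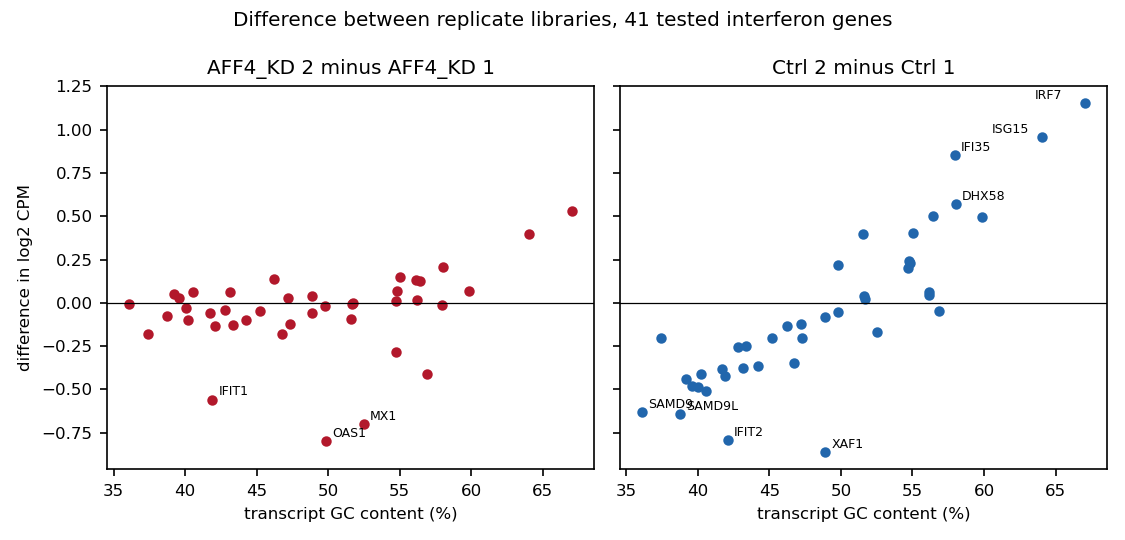
Difference in log2 CPM between the 2 libraries of a group (left AFF4_KD, right Ctrl) against transcript GC content in percent, 1 point per tested interferon gene (n = 41). The Ctrl points climb with GC content and lie between -0.86 (XAF1) and 1.15 (IRF7), and the AFF4_KD points stay between -0.80 and 0.53.

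Among the 41 tested interferon genes, 1 fell in AFF4_KD cells and 0 rose (edgeR adjusted p under 0.05). The gene that fell was OAS3. Across all tested genes 0.295% were called lower and 0.346% higher, 0.641% in all. At an unadjusted p under 0.05, 5 interferon genes were higher (12.2%, against 6.79% of all tested genes) and 10 lower (24.4%, against 8.19%), together 15 genes, where 15% of all tested genes passed. A negative log2 fold change was seen in 31 of the 41 (75.6%, against 51.2% of all tested genes). The median was -0.18 beside -0.0089 over all tested genes. Between replicate libraries, the median log2 CPM difference of the 41 genes was -0.13 for Ctrl 2 minus Ctrl 1 (-0.057 over all tested genes). For AFF4_KD 2 minus AFF4_KD 1 it was -0.010 (0.0011 over all tested genes). Both AFF4_KD libraries lay below both Ctrl libraries in 16 genes (39.0%, against 23% of all tested genes) and above them in 7 (17.1%, against 23.1%), where 46.1% of all tested genes were apart in either direction.

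The number of calls depended on the libraries and on the treatment of GC content. It was 0 of 41 without either AFF4_KD library, where 0.331% and 0.366% of all genes were called. Without Ctrl 1 it was 8 higher and 14 lower (21.5% and 22.5% of all genes, 44% in all), and without Ctrl 2 it was 7 higher and 21 lower (24.5% and 23.9% of all genes, 48.4% in all). After the GC correction 6 were higher (14.6%, against 17.3% of all genes) and 15 lower (36.6%, against 17.6%; 34.9% of all genes either way). With the replicate number as a block 3 were higher and 6 lower, where 3.01% and 3.54% of all genes were (6.54% in all), and without a filter the counts were 3 and 6 of 45 (1.74% and 2.15% of all genes, 3.89% in all). The block together with the GC correction gave 6 higher and 17 lower (21% and 20.9% of all genes, 41.8% in all). DESeq2 called 3 higher and 3 lower, where 1.39% of all genes were higher and 1.6% lower (2.98% in all). These DESeq2 calls were IFI16, CMPK2 and RSAD2 on the higher side and OAS3, IFITM1 and IFNAR1 on the lower side.

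**Figure D3:**
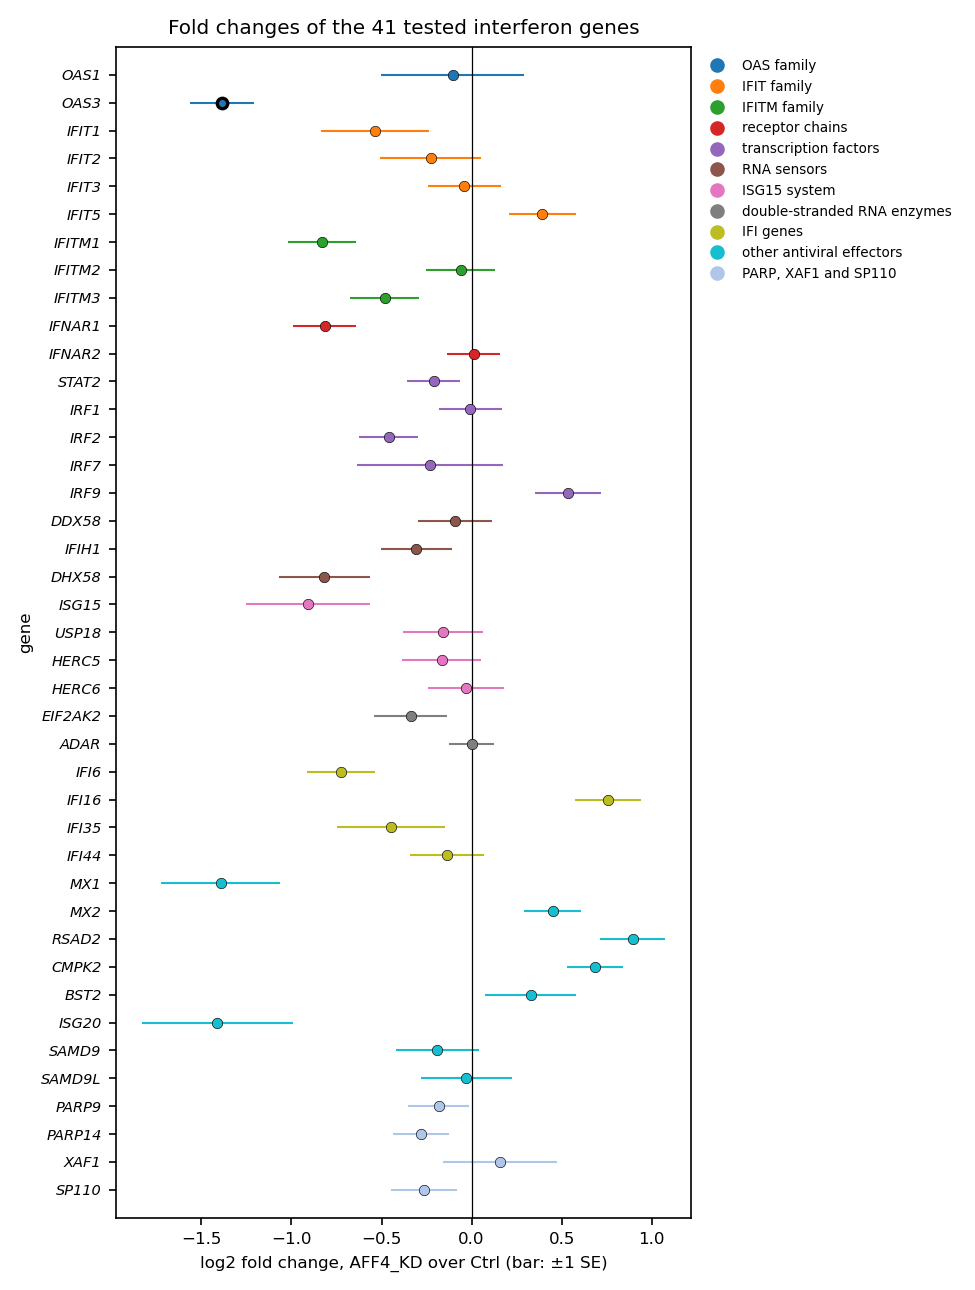
Log2 fold change of AFF4_KD over Ctrl for the 41 tested interferon genes, coloured by group, with bars of 1 SE from edgeR (2 libraries per group). OAS3, with a heavy outline, is the gene past the adjusted threshold at -1.38. RSAD2, IFI16 and CMPK2 are farthest to the right, at 0.89, 0.76 and 0.69.

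The receptor chains differed in their values. IFNAR1, the chain whose loss stops signalling by all type I interferons, was at 75.8 and 79.3 CPM in AFF4_KD cells and at 154 and 119 CPM in Ctrl cells. The AFF4_KD libraries were both below the Ctrl libraries, and the log2 fold change was -0.82 ± 0.17 (edgeR adjusted p = 0.0933, not past the threshold). Leaving out 1 library at a time gave -0.99 to -0.61, and the value was -0.80 after the GC correction (adjusted p = 2.47e-05). IFNAR2, which binds the same ligands with high affinity, was at 104 and 114 CPM in AFF4_KD cells and at 113 and 103 CPM in Ctrl cells. Its groups overlapped and its log2 fold change was 0.01 ± 0.15 (edgeR adjusted p = 0.984). The chains are neighbours on chromosome 21 (hg38), with IFNAR2 from 33229901 to 33265675 and IFNAR1 from 33324477 to 33359862, both on the plus strand. Of the 50-base stretches in IFNAR2 transcripts, 41.3% also occur in other annotated genes, first among them AP000295.1, so the IFNAR2 count is less certain. Whether the chains differ from each other in their response was not tested.

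The transcription factors of the pathway were measured at moderate levels, and 0 of 5 passed edgeR over all genes (DESeq2 also called 0). IRF9 and IRF2 reached an unadjusted p under 0.05 in edgeR, as 15% of all tested genes did. IRF9, the DNA-binding subunit of ISGF3, was at 21.0 and 23.0 CPM in AFF4_KD cells and at 14.9 and 15.4 CPM in Ctrl cells. The groups did not overlap, and the log2 fold change was 0.54 ± 0.18 (edgeR adjusted p = 0.240; 0.51 after the GC correction, adjusted p = 0.00669). Of the 50-base stretches of IRF9, 43.6% also occur in other annotated genes, first among them AL136295.5, which makes its count less certain. STAT2, the transactivating subunit of ISGF3, was at 70.0 and 70.1 CPM in AFF4_KD cells and at 80.5 and 81.7 CPM in Ctrl cells, a log2 fold change of -0.21 ± 0.15 (edgeR adjusted p = 0.578). STAT2 replicates were close in both groups, which did not overlap, and the value was -0.23 after the GC correction (adjusted p = 0.0131).

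IRF2, which competes with IRF1 at the same sites and mostly represses, was at 41.2 and 41.9 CPM in AFF4_KD cells and at 59.6 and 54.7 CPM in Ctrl cells. Its log2 fold change was -0.46 ± 0.16 (edgeR adjusted p = 0.252), between -0.52 and -0.39 with 1 library left out and -0.46 after the GC correction (adjusted p = 0.000628). IRF1, an activator induced by interferon gamma, was at 38.2 and 40.1 CPM in AFF4_KD cells and at 36.2 and 42.5 CPM in Ctrl cells, with overlapping groups. IRF7, which amplifies interferon production, was at 3.54 and 5.17 CPM in AFF4_KD cells and at 3.16 and 7.16 CPM in Ctrl cells. With a GC content of 67.04% it had the widest gap between the Ctrl libraries among the 41 genes, and its log2 fold change ran from -0.72 without Ctrl 1 to 0.45 without Ctrl 2.

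The 3 cytosolic RNA sensors had a median log2 fold change of -0.31, and 0 passed edgeR or DESeq2. At an unadjusted p under 0.05 in edgeR, 1 was lower, where 8.19% of all tested genes were. DHX58, also called LGP2, tunes the other sensors and lacks their signalling domains. It was at 7.13 and 8.26 CPM in AFF4_KD cells and at 10.9 and 16.3 CPM in Ctrl cells, a log2 fold change of -0.82 ± 0.25 (edgeR adjusted p = 0.197; -1.08 without Ctrl 1, -0.51 without Ctrl 2, and -0.81 after the GC correction, adjusted p = 0.000907). IFIH1, the MDA5 sensor of long dsRNA, was at 29.7 and 28.5 CPM in AFF4_KD cells and at 40.6 and 31.2 CPM in Ctrl cells (log2 fold change -0.31 ± 0.20, edgeR adjusted p = 0.539; -0.099 without Ctrl 1, -0.48 without Ctrl 2, and -0.28 after the GC correction, adjusted p = 0.0149). DDX58, the RIG-I sensor of RNA with a triphosphate end, was at 23.6 and 22.0 CPM in AFF4_KD cells and at 27.7 and 20.8 CPM in Ctrl cells, with overlapping groups. For DHX58 and IFIH1 both AFF4_KD libraries were below both Ctrl libraries. Taking the 10 regulators as a set, 8 had a negative log2 fold change, the median was -0.22, and the groups did not overlap in 5 lower and 1 higher. Over all tested genes, 51.2% were negative, and 23% were apart on the lower and 23.1% on the higher side.

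OAS3 makes chains of 2′-5′ oligoadenylate when it meets long dsRNA, and these switch on RNase L. Its counts were 405 and 380 in AFF4_KD cells and 1005 and 950 in Ctrl cells, equal to 22.4 and 22.6 CPM in AFF4_KD cells and 53.8 and 63.6 CPM in Ctrl cells. The mean was 22.5 ± 0.131 CPM in AFF4_KD cells and 58.7 ± 6.92 CPM in Ctrl cells (SD, n = 2 each). OAS3 fell by 1.38 on the log2 scale (SE 0.18; edgeR adjusted p = 0.0379), to 0.383 of the Ctrl level, and both AFF4_KD libraries were below both Ctrl libraries. The log2 fold change was -1.50 without Ctrl 1, -1.26 without Ctrl 2, -1.35 without AFF4_KD 1, -1.39 without AFF4_KD 2 and -1.40 after the GC correction. The call was lost without AFF4_KD 1 or AFF4_KD 2 (edgeR adjusted p = 0.326 and 0.398) and with a filter of at least 5 CPM (0.0660), and it held in the other 11 of 14 refits with adjusted p of at most 0.0421.

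OAS3 lies on chromosome 12 from 112938352 to 112973249 (plus strand, hg38), between OAS1 and OAS2. Its promoter window holds a pair of ISRE cores, shown in capitals, in chr12:112938224-112938523 (GRCh38.p14, plus strand).
OAS3 promoter: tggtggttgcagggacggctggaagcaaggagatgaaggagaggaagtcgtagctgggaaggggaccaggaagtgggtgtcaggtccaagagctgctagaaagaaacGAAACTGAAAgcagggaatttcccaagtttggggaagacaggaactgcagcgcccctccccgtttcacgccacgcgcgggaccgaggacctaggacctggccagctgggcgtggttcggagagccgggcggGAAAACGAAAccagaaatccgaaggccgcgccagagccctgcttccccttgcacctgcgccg

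The other OAS genes were near the limit of detection. OAS1, which makes the same signal from shorter dsRNA, had 24 and 12 counts in AFF4_KD cells and 19 and 18 in Ctrl cells, with overlapping groups (log2 fold change -0.11 ± 0.40, edgeR adjusted p = 0.940). OAS2 had 0 and 0 counts in AFF4_KD cells and 1 and 0 in Ctrl cells. OASL, a relative without synthetase activity that assists DDX58, had 0 and 0 counts in AFF4_KD cells and 1 and 2 in Ctrl cells. A count of 0 allows up to 0.167 and 0.180 CPM in AFF4_KD 1 and AFF4_KD 2, by counting error only, so no difference was detectable for OAS2 and OASL at this depth.

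The IFIT proteins bind viral RNA with unusual 5′ ends and lie side by side on chromosome 10, from IFIT2 at 89283694 to the end of IFIT5 at 89421001. Their log2 fold changes went in both directions, and 0 of 4 passed edgeR, whether at the adjusted threshold or at an unadjusted p under 0.05, and 0 of 4 passed DESeq2. IFIT5 was at 29.1 and 25.7 CPM in AFF4_KD cells and at 22.3 and 19.3 CPM in Ctrl cells (log2 fold change 0.39 ± 0.19, edgeR adjusted p = 0.395; 0.45 after the GC correction, adjusted p = 0.00797). IFIT3 was at 20.2 and 18.9 CPM in AFF4_KD cells and at 22.6 and 17.5 CPM in Ctrl cells, and IFIT2 was at 15.5 and 14.1 CPM in AFF4_KD cells and at 21.9 and 12.6 CPM in Ctrl cells. The groups overlapped for both, and their sign turned when Ctrl 1 was left out (0.16 for IFIT3 and 0.24 for IFIT2). IFIT1 was lowest, with 58 and 36 counts in AFF4_KD cells and 83 and 49 in Ctrl cells (log2 fold change -0.53 ± 0.30, edgeR adjusted p = 0.476; -0.82 without AFF4_KD 1, -0.27 without AFF4_KD 2 and -0.28 without Ctrl 1). Its groups did not overlap in CPM.

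The IFITM proteins sit in membranes and hinder the fusion of viruses with the cell. Per length they were the most abundant of the 45 genes in Ctrl cells, with mean RPKM (CPM per kilobase of annotated exon) in AFF4_KD and Ctrl cells of 100.4 and 104.7 for IFITM2, 70.2 and 98.0 for IFITM3 and 43.8 and 78.0 for IFITM1. IFITM1 was at 44.9 and 49.8 CPM in AFF4_KD cells and at 72.5 and 95.9 CPM in Ctrl cells, a log2 fold change of -0.83 ± 0.19 (edgeR adjusted p = 0.109; range -1.02 to -0.62 with 1 library left out). IFITM3, the member that guards late endosomes, was at 92.4 and 96.8 CPM in AFF4_KD cells and at 109.7 and 155 CPM in Ctrl cells, a log2 fold change of -0.48 ± 0.19 (edgeR adjusted p = 0.305; -0.71 without Ctrl 1 and -0.22 without Ctrl 2). For both genes the AFF4_KD libraries were below the Ctrl libraries. IFITM2 was at 148 and 162 CPM in AFF4_KD cells and at 134 and 189.5 CPM in Ctrl cells, with the AFF4_KD libraries inside the Ctrl range.

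After the GC correction IFITM1 and IFITM3 passed (adjusted p = 4.53e-05 and 0.000245) and IFITM2 did not (log2 fold change -0.06, adjusted p = 0.495). Of all tested genes 34.9% passed after this correction. The split of reads among the 3 is uncertain because they are near-identical in part. Of the 50-base stretches in their transcripts, 32.0% in IFITM1, 34.1% in IFITM2 and 17.4% in IFITM3 also occur in another gene, mostly in each other. The annotated span of IFITM2 (chromosome 11, 307631 to 315272) also takes in the span of IFITM1 (313506 to 315272).

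ISG15 is a ubiquitin-like protein that is attached to other proteins by HERC5 and removed by USP18, which also blocks the receptor. ISG15 was at 5.75 and 7.60 CPM in AFF4_KD cells and at 8.51 and 16.7 CPM in Ctrl cells, a log2 fold change of -0.91 ± 0.34 (edgeR adjusted p = 0.278). The groups did not overlap, but the value was -1.32 without Ctrl 1, -0.36 without Ctrl 2 and -0.86 after the GC correction (adjusted p = 0.00123), and its GC content was 64.0%. HERC5 was at 26.6 and 27.9 CPM in AFF4_KD cells and at 35.9 and 25.2 CPM in Ctrl cells, and its relative HERC6 was at 17.4 and 15.3 CPM in AFF4_KD cells and at 18.7 and 14.7 CPM in Ctrl cells. USP18 was at 9.34 and 8.73 CPM in AFF4_KD cells and at 8.73 and 11.5 CPM in Ctrl cells. The groups of HERC5, HERC6 and USP18 overlapped, and USP18 shares 23.4% of its 50-base stretches with other genes, first among them USP41.

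Of the enzymes that act on dsRNA, ADAR, which edits adenosine to inosine, was the more abundant. It was at 409 and 404 CPM in AFF4_KD cells and at 414 and 399 CPM in Ctrl cells, with overlapping groups and a log2 fold change of 0.0001 ± 0.12 (edgeR adjusted p = 0.9998). EIF2AK2, the kinase PKR that stops translation, was at 46.8 and 47.6 CPM in AFF4_KD cells and at 69.5 and 49.7 CPM in Ctrl cells (log2 fold change -0.34 ± 0.20, edgeR adjusted p = 0.505). Its value was -0.073 without Ctrl 1, -0.56 without Ctrl 2 and -0.29 after the GC correction (adjusted p = 0.00838).

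The IFI genes share a name and not a function. IFI16, a nuclear DNA sensor, was at 245 and 240.3 CPM in AFF4_KD cells and at 168 and 119 CPM in Ctrl cells, a log2 fold change of 0.76 ± 0.18 (edgeR adjusted p = 0.124). Both AFF4_KD libraries were above both Ctrl libraries, and the value was 0.53 without Ctrl 2, 1.03 without Ctrl 1 and 0.80 after the GC correction (adjusted p = 1.33e-05). IFI6, a small membrane protein that opposes cell death, was at 8.62 and 8.73 CPM in AFF4_KD cells and at 14.03 and 14.66 CPM in Ctrl cells (log2 fold change -0.72 ± 0.19, edgeR adjusted p = 0.143; -0.75 to -0.69 with 1 library left out, and -0.75 after the GC correction, adjusted p = 0.00206). The replicates of IFI6 were close in both groups and the groups did not overlap.

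IFI44 was at 25.3 and 26.2 CPM in AFF4_KD cells and at 32.5 and 24.0 CPM in Ctrl cells, and IFI35 was at 8.73 and 8.67 CPM in AFF4_KD cells and at 8.46 and 15.4 CPM in Ctrl cells. Both had overlapping groups. IFI27 had 3 and 1 counts in AFF4_KD cells and 8 and 6 in Ctrl cells, and IFI44L had 1 and 1 counts in AFF4_KD cells and 4 and 2 in Ctrl cells. These last genes, like OAS2 and OASL, had too few reads to be tested.

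RSAD2 and CMPK2 had higher levels in AFF4_KD cells and are adjacent genes whose annotated spans overlap at their starts. RSAD2 encodes viperin, which converts CTP into a chain terminator for viral polymerases, and CMPK2 encodes a mitochondrial nucleotide kinase that can supply CTP. RSAD2 was at 34.7 and 33.6 CPM in AFF4_KD cells and at 19.7 and 17.1 CPM in Ctrl cells, a log2 fold change of 0.89 ± 0.18 (edgeR adjusted p = 0.0857). CMPK2 was at 65.8 and 65.4 CPM in AFF4_KD cells and at 40.2 and 41.4 CPM in Ctrl cells, a log2 fold change of 0.69 ± 0.16 (edgeR adjusted p = 0.110). For both, the AFF4_KD libraries were above the Ctrl libraries and the replicates lay close together. The values moved little with 1 library left out (0.797 to 1.004 for RSAD2 and 0.67 to 0.71 for CMPK2). Both passed after the GC correction (adjusted p = 5.45e-05 and 7.29e-05), where 34.9% of all tested genes passed.

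RSAD2 (plus strand) and CMPK2 (minus strand) are transcribed away from each other on chromosome 2, and their nearest annotated starts are 6865885 and 6865819. The RSAD2 window at the first start, chr2:6865635-6865934 (GRCh38.p14, plus strand), shares 165 bases with a CMPK2 window, which are shown in capitals.
RSAD2 promoter: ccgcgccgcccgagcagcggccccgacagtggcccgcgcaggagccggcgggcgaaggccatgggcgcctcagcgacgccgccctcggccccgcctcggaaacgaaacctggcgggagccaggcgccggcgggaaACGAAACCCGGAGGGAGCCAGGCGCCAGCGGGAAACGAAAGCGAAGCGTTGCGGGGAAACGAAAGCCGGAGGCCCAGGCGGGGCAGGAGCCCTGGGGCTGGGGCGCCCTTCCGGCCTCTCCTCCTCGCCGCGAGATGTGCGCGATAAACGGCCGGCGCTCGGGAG
This window has no ISRE core match, but it holds 4 copies of GAAANGAAA, a spacing searched after the sequence was seen, and 2 of the 4 lie in the shared bases. The pattern occurs in 14 of the 35 interferon genes with a window (40%), against 3.87% of all genes in the table. The 14 include RSAD2, whose sequence prompted the search, and CMPK2, which shares bases with it, so they are not independent of that choice. The ISRE core of RSAD2 printed above belongs to its second annotated start.

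The 2 dynamin-like MX proteins had opposite signs. MX2, which restricts HIV at the nuclear pore, was at 67.6 and 65.0 CPM in AFF4_KD cells and at 49.9 and 47.1 CPM in Ctrl cells, a log2 fold change of 0.45 ± 0.16 (edgeR adjusted p = 0.248; 0.44 after the GC correction, adjusted p = 0.000592). MX1, which restricts influenza virus, had 24 and 13 counts in AFF4_KD cells and 55 and 39 in Ctrl cells, or 1.33 and 0.772 CPM in AFF4_KD cells and 2.94 and 2.61 CPM in Ctrl cells. Its log2 fold change was -1.39 ± 0.33 (edgeR adjusted p = 0.118; -1.81 to -1.06 with 1 library left out, and -1.41 after the GC correction, adjusted p = 0.00611). The groups overlapped for neither gene, and the difference between MX1 and MX2 was not tested. They are neighbours on chromosome 21, with MX2 from 41361943 to 41409390 and MX1 from 41420304 to 41459214, and share 0.248% (MX2) and 0.314% (MX1) of their 50-base stretches with any other gene.

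The remaining effectors were low or had overlapping groups. ISG20, an RNA exonuclease, had 7 and 5 counts in AFF4_KD cells and 16 and 15 in Ctrl cells, without overlap (log2 fold change -1.41 ± 0.42, edgeR adjusted p = 0.182; -1.43 after the GC correction, adjusted p = 0.0233). BST2, or tetherin, which holds budding virions at the cell surface, had 85 and 59 counts in AFF4_KD cells and 62 and 48 in Ctrl cells (log2 fold change 0.33 ± 0.25, edgeR adjusted p = 0.630; 0.13 without AFF4_KD 1 and 0.52 without AFF4_KD 2). In CPM its groups did not overlap, at 4.70 and 3.50 in AFF4_KD cells and 3.32 and 3.21 in Ctrl cells. SAMD9 was at 47.8 and 47.6 CPM in AFF4_KD cells and at 66.02 and 42.58 CPM in Ctrl cells, and its neighbour SAMD9L was at 14.5 and 13.7 CPM in AFF4_KD cells and at 17.5 and 11.2 CPM in Ctrl cells. For both SAMD9 genes, which are growth-restraining antiviral proteins of GC content under 40%, the AFF4_KD libraries lay between Ctrl 2 and Ctrl 1.

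In the last group 0 of 4 passed edgeR at either the adjusted threshold or an unadjusted p under 0.05, and 0 of 4 passed DESeq2. PARP14, a mono-ADP-ribosyltransferase, was at 94.6 and 92.1 CPM in AFF4_KD cells and at 123 and 103 CPM in Ctrl cells (log2 fold change -0.28 ± 0.16, edgeR adjusted p = 0.472; -0.14 without Ctrl 1, -0.40 without Ctrl 2, and -0.26 after the GC correction, adjusted p = 0.00491). PARP9, its partner without strong activity of its own, was at 58.1 and 53.2 CPM in AFF4_KD cells and at 68.6 and 57.8 CPM in Ctrl cells, with overlapping groups (-0.18, and -0.050 without Ctrl 1, -0.30 without Ctrl 2 and -0.12 without AFF4_KD 2). The nuclear-body protein SP110 was at 23.0 and 21.1 CPM in AFF4_KD cells and at 28.3 and 24.6 CPM in Ctrl cells, without overlap (-0.26 ± 0.18, edgeR adjusted p = 0.581; -0.15 without Ctrl 1, and -0.27 after the GC correction, adjusted p = 0.0335). XAF1, which promotes apoptosis, was at 4.03 and 4.16 CPM in AFF4_KD cells and at 4.71 and 2.54 CPM in Ctrl cells, and its sign turned without Ctrl 2.

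**Figure D4:**
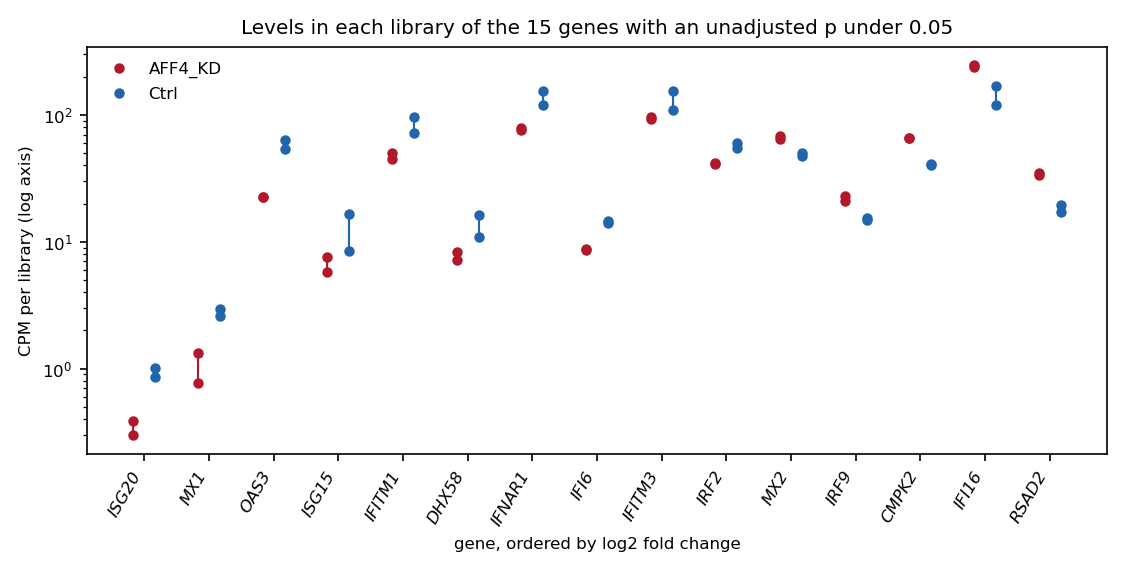
CPM in each library on a log axis for the 15 interferon genes with an unadjusted p under 0.05 in edgeR, ordered by log2 fold change, with AFF4_KD (red) left of Ctrl (blue). In all 15 the 2 groups are apart, from ISG20 at 0.297 to 0.387 CPM in AFF4_KD and 0.857 to 1.004 CPM in Ctrl up to RSAD2, where AFF4_KD is the higher. The genes were chosen by p-value in these same libraries, which favours groups that are apart.

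Ordered by mean RPKM in Ctrl cells, the 3 IFITM genes were followed by ADAR (42.0 in AFF4_KD and 42.0 in Ctrl cells), IFI16 (45.9 and 27.1), IFNAR2 (23.6 and 23.4) and IFNAR1 (12.3 and 21.6). The lowest tested genes per length were ISG20, OAS1 and MX1, with 0.0464, 0.206 and 0.122 RPKM in AFF4_KD cells and 0.126, 0.225 and 0.322 RPKM in Ctrl cells. Summed over all 45 genes, the level was 2011 and 2020.1 CPM in AFF4_KD cells and 2187 and 2094 CPM in Ctrl cells, with the AFF4_KD libraries below the Ctrl libraries. Abundant genes weigh most in this sum, and the groups of genes went both ways. The IFI genes summed to 288 and 284 CPM in AFF4_KD and 223 and 174 CPM in Ctrl cells. The other antiviral effectors summed to 237 and 230 CPM in AFF4_KD and 200 and 166 CPM in Ctrl cells. Sums of the IFIT family and the dsRNA-responsive enzymes overlapped, and those of the remaining groups were lower in AFF4_KD cells.

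**Figure D5:**
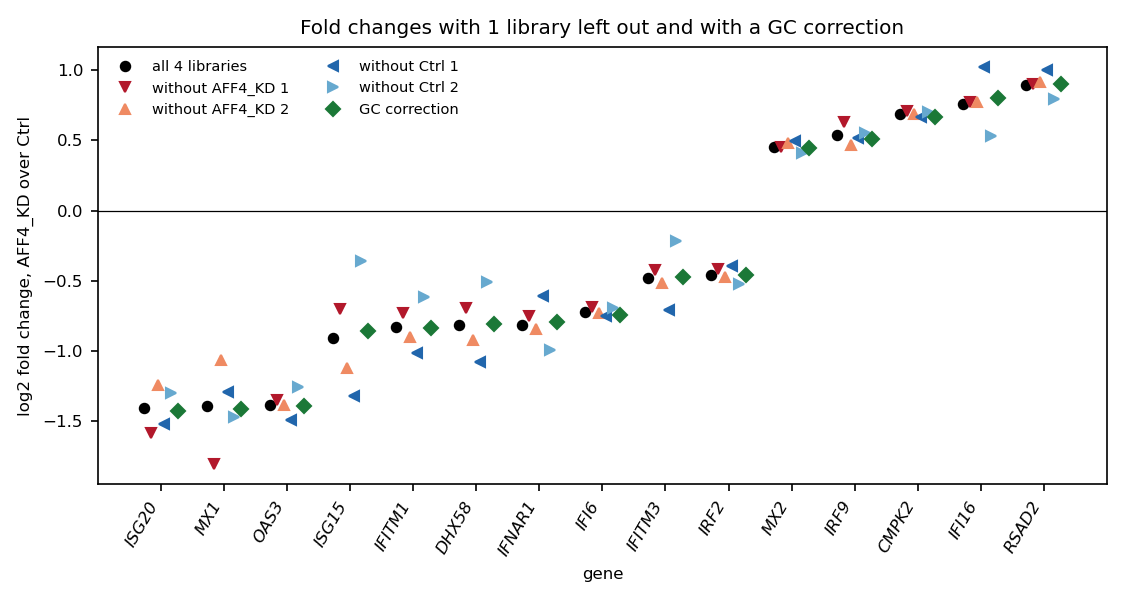
Log2 fold change of AFF4_KD over Ctrl for the same 15 genes with all 4 libraries (black), with each library left out, and after the GC correction (diamonds). No sign changes among these 15 genes. Their groups are all apart, so leaving out 1 library could hardly turn a sign. ISG15 spans -1.32 to -0.36 and CMPK2 spans 0.67 to 0.71 over the leave-one-out fits.

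Other genes of the pathway were taken from lists that, like the members, were chosen with earlier results of these data known. Their counts are therefore no independent check on the members. Of 22 interferon ligand genes in the table, 1 had any read, with at most 1 count in a library, and 0 could be tested. Among 17 tested genes of interferon signalling and feedback, 0 passed edgeR, and the median log2 fold change was -0.13. An unadjusted p under 0.05 was reached by 2 lower genes and 0 higher ones, where 15% of all tested genes reached it. The GC correction called 2 higher and 4 lower (35.3%), near the 34.9% of all tested genes. SOCS3, a feedback inhibitor of cytokine receptors, was at 97.2 and 108 CPM in AFF4_KD cells and at 189 and 279 CPM in Ctrl cells (log2 fold change -1.19 ± 0.21, edgeR adjusted p = 0.0641). STAT3 was at 346 and 370.0 CPM in AFF4_KD cells and at 505 and 525 CPM in Ctrl cells (-0.52 ± 0.13, adjusted p = 0.120). IFNGR1, the ligand-binding chain of the interferon gamma receptor, was at 81.4 and 77.4 CPM in AFF4_KD cells and at 69.7 and 49.7 CPM in Ctrl cells (0.41 ± 0.20, adjusted p = 0.400; 0.68 without Ctrl 1 and 0.19 without Ctrl 2). The groups of these 3 genes did not overlap, and all 3 passed after the GC correction (adjusted p = 3.48e-06, 7.80e-05 and 0.000556). The 3 were picked for the smallest p of the list. Among its 17 tested genes 41.2% were apart in either direction, against 46.1% of all tested genes.

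Of 25 tested genes of nucleic acid sensing 0 passed edgeR, 1 had an unadjusted p under 0.05 (a lower one; 15% of all tested genes did), and the GC correction called 3 higher and 6 lower (36%, near the 34.9% of all tested genes). The median was -0.06. MAVS, the mitochondrial adaptor of DDX58 and IFIH1, was at 114 and 118 CPM in AFF4_KD cells and at 138 and 156 CPM in Ctrl cells (log2 fold change -0.34 ± 0.15, edgeR adjusted p = 0.334). The endosomal dsRNA receptor TLR3 and the DNA sensor AIM2 had log2 fold changes of -0.90 ± 0.29 and 0.54 ± 0.23 (adjusted p = 0.209 and 0.335). After the GC correction MAVS, TLR3 and AIM2 had adjusted p = 0.00105, 0.0306 and 0.0185.

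A list of 69 further interferon-stimulated genes had 61 tested, of which 46 had a value below 0 on the log2 fold scale (median -0.17), where 51.2% of all tested genes did. Of these 1 fell and 0 rose in edgeR, while an unadjusted p under 0.05 was reached by 17 lower genes and 1 higher gene, where 8.19% of all tested genes were lower and 6.79% higher. The gene that fell was IFI30, a lysosomal thiol reductase of antigen processing, at 3.37 and 3.74 CPM in AFF4_KD cells and 8.995 and 10.38 CPM in Ctrl cells (log2 fold change -1.44 ± 0.22, edgeR adjusted p = 0.0472). Its call held in 9 of 14 refits and was lost without AFF4_KD 1 or AFF4_KD 2 (adjusted p = 0.426 and 0.283), without scaling (0.0582), with the 5 CPM filter (0.0749) and in limma-voom (0.0508). APOL6, an apolipoprotein L, was at 18.96 and 17.52 CPM in AFF4_KD cells and at 49.4 and 38.6 CPM in Ctrl cells (-1.27 ± 0.20, adjusted p = 0.0519). The ETS repressor ETV7 was at 0.663 and 0.416 CPM in AFF4_KD cells and at 1.61 and 2.21 CPM in Ctrl cells (-1.79 ± 0.39, adjusted p = 0.0942). APOL6 and ETV7 passed after the GC correction (adjusted p = 9.63e-06 and 0.00328). After the GC correction 4 genes of this list were higher and 29 lower (54.1% in all), against 17.3% and 17.6% of all tested genes (34.9% in all).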

How the data were processed

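The authors deposited whole-number read counts per gene for the 4 libraries. HISAT2 2.1.0, featureCounts 1.6.1, fastp 0.13.1 and the build hg38 are named, without role or order, per the submitters' processing notes. Not given in the sources used here are the annotation, the strand setting and how multi-mapping was handled, which set how reads of paralogs and overlapping genes are split. No molecular identifiers are mentioned, so limits from counts cover counting error only. The table had 0 columns of other samples.

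Genes were kept by filterByExpr (minimum count 10, minimum total 15), which left 13572, and libraries were scaled by TMM. The quasi-likelihood F test of edgeR 4.0.16 (R 4.3.3), with the group as the only term and Benjamini-Hochberg adjustment over all tested genes, compared AFF4_KD with Ctrl. The threshold for a call was an adjusted p under 0.05, and rose and fell are used for called genes only. The SE was taken from the fold change and the root of F. On simulated counts for 13572 genes, with 100 genes changed by each fold, the test recovered 62% of those changed 2-fold and 96% of those changed 4-fold. It also called 10 genes that were not changed. The simulation drew each gene independently, without the GC-linked gap between the Ctrl libraries, so these shares do not give the recovery in the real libraries. The alternatives were RLE, upper quartile and no scaling, other filters, DESeq2 1.42.0, limma-voom (limma 3.58.1), a replicate block, leaving out libraries in turn, and a GC correction (lowess, span 0.4, of each library's log-CPM deviation on transcript GC content, as an offset).

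Positions, exonic length and transcript GC content came from GENCODE v29 (GRCh38, the assembly called hg38), matched by name for 25861 symbols, and 97.0% of tested genes had values. Promoter windows are from RefSeq. The 50-base stretches were compared over all GENCODE v29 transcripts. All members were accounted for. Full values were set for members past an unadjusted p of 0.05 at 1 CPM or more and for the 2 most abundant of each group, and from each pathway list the called genes and the 3 with the smallest p were named. The members and lists were chosen with earlier results of these data known. Protein sequences were not used here.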

Additional observations from a re-analysis of the deposited data

How the results depend on the processing

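The median log2 fold change of the 41 tested interferon genes stayed negative under every alternative (-0.28 to -0.10 with 1 library left out). The number of genes called across the table, 87, was 734 without a filter, 5 with at least 5 CPM in 2 libraries, 405 in DESeq2, 888 with the replicate block, 4600 after the GC correction, 5505 with both, 3 at an adjusted p under 0.01, and 46 to 6722 with 1 library left out. For the interferon genes, 1 called, the counts in the same order were 9, 0, 6, 9, 21, 23, 0 and 0 to 28. For the pathway lists, 1 called, they were 9, 0, 5, 10, 51, 55, 0 and 0 to 65, and also 0 without scaling and 0 in limma-voom. The cause of these differences was not tested. AFF4 was at -2.10 with the 5 CPM filter (adjusted p = 0.0552) and missed the 0.01 threshold at -2.07.

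The labels give both groups replicates 1 and 2 without saying that a number pairs libraries. The deviations of same-numbered libraries had a Pearson correlation of 0.29 across genes, over 2 pairs only, so the block is an alternative and not a pairing. With 1 library left out, the spread of a lone library is taken from the remaining pair.

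The sign turned with 1 library left out in 17 genes: OAS1 (-0.60 to 0.26), IFIT2 (-0.57 to 0.24), IFIT3 (-0.21 to 0.16), IFITM2 (-0.29 to 0.21), IFNAR2 (-0.057 to 0.11), IRF1 (-0.12 to 0.11), IRF7 (-0.72 to 0.45), DDX58 (-0.28 to 0.14), USP18 (-0.35 to 0.050), HERC5 (-0.40 to 0.12), HERC6 (-0.19 to 0.16), ADAR (-0.028 to 0.031), IFI35 (-0.82 to 0.040), IFI44 (-0.34 to 0.10), SAMD9 (-0.47 to 0.17), SAMD9L (-0.31 to 0.34) and XAF1 (-0.20 to 0.69). It turned under other alternatives in 5 genes near 0. IFNAR2 was -0.021 with the 5 CPM filter. IRF1 was 0.0042 with upper quartile scaling and 0.021 without scaling, and HERC6 was 0.00040 without scaling. ADAR was -0.0019 with RLE and DESeq2, -0.033 with the 5 CPM filter, -8.57e-05 in limma-voom, -0.0095 after the GC correction and -0.0094 with the block added. SAMD9L was 0.0042 without scaling, 0.0018 in limma-voom, 0.00085 with the block, 0.024 after the GC correction and 0.031 with both.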

Other observations

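Enzymes that limit or process endogenous nucleic acids, a further list, had log2 fold changes from -0.41 to 0.30. The list shares TREX1, SAMHD1 and PNPT1 with the 69 further interferon-stimulated genes described above. Of 13 tested, 9 had a positive log2 fold change, with a median of 0.04, and 0 passed edgeR over all genes (0 at an unadjusted p under 0.05; 3 higher and 2 lower after the GC correction, 38.5% against 34.9% of all tested genes). The helicase DHX9 was at 610 and 587 CPM in AFF4_KD cells and at 521 and 448 CPM in Ctrl cells. RNASEH2A, the catalytic subunit of RNase H2, was at 37.7 and 44.1 CPM in AFF4_KD cells and at 45.8 and 62.9 CPM in Ctrl cells. MORC2, an ATPase of the HUSH silencing pathway, was at 65.6 and 65.8 CPM in AFF4_KD cells and at 51.0 and 57.4 CPM in Ctrl cells. In edgeR, DHX9 had a log2 fold change of 0.30 (adjusted p = 0.354), RNASEH2A one of -0.41 (0.431) and MORC2 one of 0.28 (0.488). The groups of all 3 were apart, and after the GC correction the adjusted p was 0.0011 for DHX9, 0.00524 for RNASEH2A and 0.0185 for MORC2. The 3 were picked for the smallest p of the list. Among its 13 tested genes 53.8% were apart in either direction, against 46.1% of all tested genes. With a library left out, RNASEH2A was at -0.17 without Ctrl 2, -0.62 without Ctrl 1 and -0.27 without AFF4_KD 1, and DHX9 was at 0.20 without Ctrl 2.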
